A study of Arabidopsis thaliana with 18 samples.

Results

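Plants of the Arabidopsis thaliana accession Est that had received salicylic acid (SA) were compared with plants that had received only the wetting agent silwet, on 6 of the 18 ATH1 microarrays of the series. The 6 arrays were chosen by the numbers in their titles: 37, 38 and 39 with silwet, and 46, 47 and 48 with SA, which open the number series of each treatment. The silwet group received a 0.02% solution of silwet, and the SA group 0.3 mM SA in a silwet solution of the same strength, so both groups carry the surfactant. No genotype other than the accession is given. Each group holds replicates 1, 2 and 3, and arrays with the same number were treated as a pair. The labels name no tissue, plant age or harvest time. They also do not say whether replicates were separate plants, and the p-values below therefore reflect only how far these arrays scatter, which may be technical. The published work of this project is known to have sampled plants at successive times after spraying, but neither the labels nor the series text ties a title to a time, and none is assigned here. The labels also do not say which SA arrays were harvested with which silwet arrays. Treatment therefore cannot be told apart from any other difference between these sets of 3 arrays.

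Salicylic acid is a plant hormone of defence, above all against pathogens that feed on living tissue. It is perceived through NPR1 and related proteins, which work with TGA factors to switch on defence genes such as those of the pathogenesis-related (PR) proteins, and it helps to establish systemic acquired resistance. Plants limit free SA by joining it to sugars or amino acids, by methylation and by hydroxylation. Secretory proteins made in the response load the endoplasmic reticulum, whose folding genes are known SA targets.

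The values are array signals on the scale log2(signal + 16), and a difference is the SA level minus the silwet level, which understates the change of dim probe sets. A probe set is a group of probes that reads 1 transcript or, in some cases, the transcripts of several genes. Probe sets were called changed at a limma adjusted p under 0.05. Of 22810 probe sets, 17059 were bright enough to be tested, and 9491 of these carry a single gene name here. PR1, PR2, PR5 and ICS1, the genes most often used to follow SA responses, have no named probe set here and are not analysed by name.

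Few of the fixed tissue markers could be checked. RCA, the activase of Rubisco, lay between 11.24 and 11.53 on the 6 arrays and LHCB4.1, a light-harvesting protein, between 11.58 and 11.79, which places both among the brightest probe sets. These were the 2 of 10 fixed leaf markers with a named probe set, and their summed signal was 5878 to 6307 with silwet and 5478 to 6379 with SA. The 4 of 11 root markers with a named probe set summed to 13.9 to 22.8 with silwet and 11.4 to 16.9 with SA, near 0 on this scale. FMA, a factor of guard cell formation, had signals of 46.6 to 49.8 with silwet and 31.9 to 40.4 with SA, a difference of -0.33 that did not pass (adjusted p = 0.155). No fixed flower, seed or trichome marker has a named probe set here. In whole tissue, fewer cells of a type and less RNA per cell cannot be told apart.

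Signals were deposited scaled to a common level, with median signals of 34.2 to 35.7 on the silwet arrays and 30.8 to 33.4 on the SA arrays. The groups did not overlap, which gives an exact two-sided permutation p of 0.1, the smallest that 3 against 3 arrays allow (0.5 after adjustment over 5 array measures). On the log2 scale, 3' over 5' control signal, a ratio that rises as RNA breaks, was 1.84 ± 0.34 with silwet and 1.85 ± 0.72 with SA for actin (SD, n = 3 each), 1.52 ± 0.22 and 1.39 ± 0.11 for ubiquitin, and -0.08 ± 0.21 and -0.03 ± 0.30 for GAPDH. The exact permutation p was 1, 0.5 and 0.9 in turn.

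Transcripts rose and fell with SA in nearly equal number. In the paired limma fit 422 probe sets rose (2.47% of those tested) and 424 fell (2.49%), which together make 846 (4.96%). Among probe sets with a single gene, 221 rose and 216 fell. The median rise was 0.82 and the median fall -0.81, and 108 of the rises and 102 of the falls were at least 2-fold. The SA arrays all lay above the silwet arrays at 1700 probe sets (9.97%) and all below them at 2551 (15%). Over all probe sets tested the median difference was -0.05, with quartiles of -0.23 and 0.12, and 9964 (58.4%) were lower with SA. For 15635 probe sets (91.7%) the 95% interval stayed inside 1 log2 unit on either side of 0, and the median half-width of these intervals over all probe sets was 0.32.

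Rises and falls were spread differently over signal levels. Among the 5686 brightest probe sets tested, 270 rose and 147 fell. Among the 5686 of middle level, 119 rose and 214 fell, and among the 5687 dimmest, 33 rose and 63 fell. Quantile normalization moved the balance towards rises, with 57.4% of its 899 calls upward (516) against 49.9% as deposited.

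**Figure D1:**
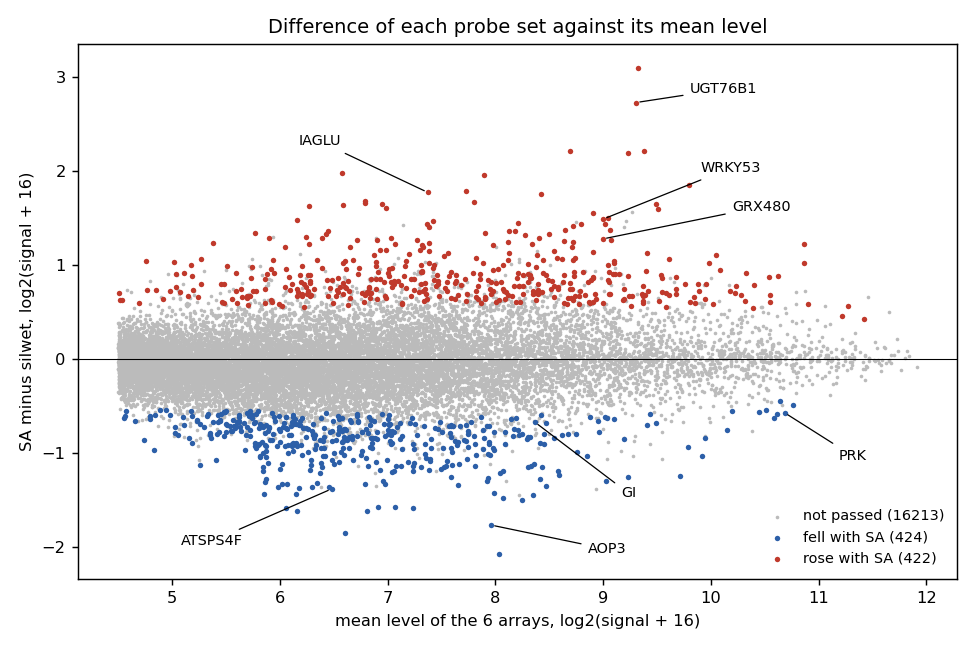
Difference between SA and silwet (SA minus silwet, log2(signal + 16)) against the mean level of the 6 arrays for each of the 17059 probe sets tested, with 422 rises in red, 424 falls in blue and the others in grey. UGT76B1 stands near the top at 2.73 and AOP3 near the bottom at -1.77.

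The count of 846 rests on the settings of the fit. Without the filter on dim probe sets 0 of 22746 passed in limma (smallest adjusted p = 0.0605, with 4437 at an unadjusted p under 0.05), without the replicate block 291 passed, all of them among the 846, and without replicate 3 only 50 passed. Without replicates 1 and 2 the counts were 900 and 335.

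All 846 probe sets differed the same way in all 3 pairs. The median of those that rose was 0.69, 0.95 and 0.79 in pairs 1, 2 and 3, and of those that fell -0.63, -1.04 and -0.78. Pair 2 thus had the widest differences and pair 1 the narrowest, and since the pairs entered the call these values are a description. Across all probe sets tested, the pair differences correlated with r of 0.449 for pairs 1 and 2, 0.474 for pairs 1 and 3, and 0.587 for pairs 2 and 3, over genes that are not independent replicates. The first principal component held 46.4% of the variance, with scores of -22.9, -32.0 and -9.36 for the silwet arrays and 1.67, 34.0 and 28.5 for the SA arrays. The groups did not overlap on it, and SA replicate 1 lay nearest to the silwet arrays.

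**Figure D2:**
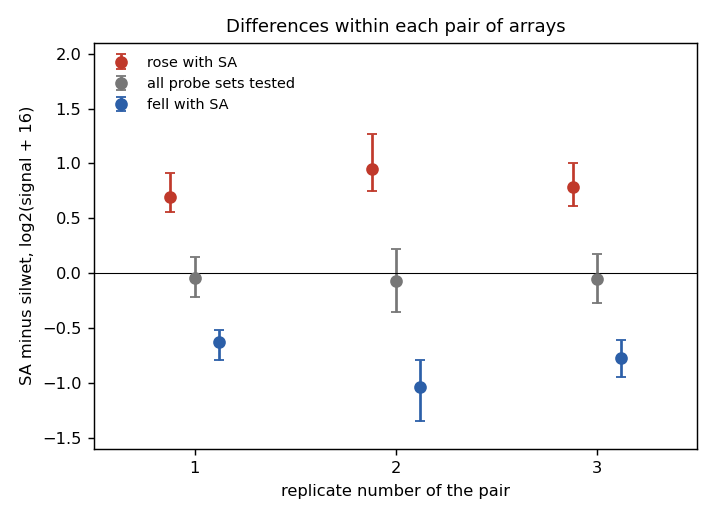
Median difference within each pair of arrays (SA minus silwet, log2(signal + 16)) for the probe sets that rose, those that fell and all tested, with bars for the quartiles. The medians of the risers were 0.69, 0.95 and 0.79 and those of all probe sets -0.04, -0.07 and -0.05.

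Among genes that act on SA itself, UGT76B1, a glucosyltransferase that conjugates SA and the related acid isoleucic acid, changed most. Its level (AT3G11340) was 8.25, 7.82 and 7.76 on silwet arrays 1, 2 and 3 and 10.51, 10.81 and 10.70 on the SA arrays. Every SA array was far above every silwet array, and the groups were narrow (SD 0.26 and 0.15, n = 3 each). The difference of 2.73 ± 0.17 (SE) is 6.63-fold (adjusted p = 0.00508), and it ranked 2 among all 17059 probe sets by size of rise. The only larger rise was that of an unnamed probe set, 245035_at, at 3.09.

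Of 5 tested members of the SA conjugation and turnover list, 2 rose and 0 fell, with a median difference of 0.79 against -0.05 over all probe sets. Of all probe sets tested, 2.47% rose and 2.49% fell. The other member that rose was AT5G03490, by 0.97 ± 0.12 (adjusted p = 0.0198, not passed without replicate 3). WES1, a GH3 enzyme that joins amino acids to small acid hormones, was 0.79 higher with groups that did not overlap, but did not pass (adjusted p = 0.0533). BSMT1, which methylates SA, and UGT74D1 had differences of -0.24 and 0.14 and did not pass. This list holds 18 loci, 7 of which have a named probe set.

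The tested members of the list of SA synthesis and its regulators, not all of them regulators, were all higher with SA. Of the 5 tested members, out of 36 in the list, 4 rose and 0 fell, and the median difference was 1.28. Over all probe sets tested, 58.4% were lower, 2.47% rose and 2.49% fell. WRKY53, a transcription factor of defence and leaf senescence, had levels of 8.77, 7.84 and 8.17 with silwet and 9.77, 9.72 and 9.76 with SA. The SA arrays were nearly level while silwet replicate 1 stood above the other two, and the groups did not overlap. WRKY53 rose by 1.49 ± 0.18 (2.81-fold, adjusted p = 0.0186). GRX480, a glutaredoxin known to interact with TGA factors, had 8.73, 8.01 and 8.35 with silwet and 9.86, 9.64 and 9.42 with SA, again without overlap, and rose by 1.28 ± 0.15 (2.42-fold, adjusted p = 0.0183).

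The remaining calls of that list were AT5G52810, which rose by 1.41 ± 0.14 (adjusted p = 0.0152), and AT4G26120, which rose by 0.73 ± 0.15 (adjusted p = 0.0415). SAG101, a partner of the immune regulator EDS1, was 0.48 higher and did not pass (adjusted p = 0.0836). Without replicate 3, AT5G52810 still passed and WRKY53, GRX480 and AT4G26120 did not. AT4G26120 also did not pass without replicate 2.

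Of 7 tested WRKY factors WRKY53, already counted among the regulators, was the only call (4.96% of all probe sets tested were called), and the median difference was 0.00. WRKY6, which acts in senescence and defence, was 0.62 higher (adjusted p = 0.176). Of 3 tested members of the list of PR proteins and antimicrobial enzymes 0 passed. PR1, PR2 and PR5 could not be tested by name, and the list may miss enzymes that carry no symbol. CHI (AT2G43570), of the chitinase group, had 10.43, 8.41 and 10.36 with silwet and 9.71, 10.49 and 10.75 with SA. Silwet replicate 2 lay far below the other 5 arrays, the groups overlapped, and the difference of 0.58 ± 0.44 turned to -0.16 without replicate 2. ChiC, a chitinase, differed by -0.23 ± 0.34 (SE), and by 0.070 without replicate 1 and 0.057 without replicate 3.

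**Figure D3:**
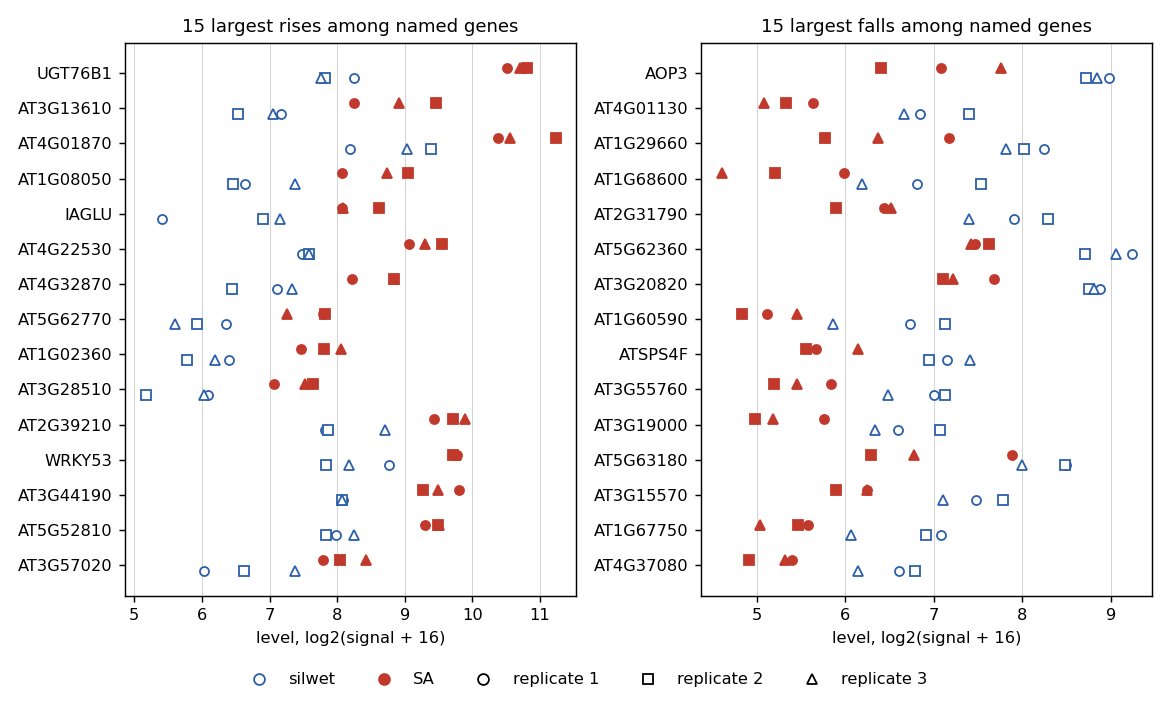
Level (log2(signal + 16)) of the 15 largest rises and 15 largest falls among named genes on each of the 6 arrays, silwet open and SA filled, with a shape for each replicate number. UGT76B1 lay at 7.76 to 8.25 with silwet and 10.51 to 10.81 with SA, while AOP3 lay at 8.72 to 8.98 and 6.41 to 7.75.

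Jasmonate and ethylene defence genes, often held to be opposed by SA, did not pass in either direction. PDF1.2, a defensin used as their marker, had 7.47, 6.18 and 7.67 with silwet and 7.68, 5.73 and 6.66 with SA. The groups overlapped, and the array with replicate number 2 was the lowest of each. The difference was -0.42 ± 0.22 (SE, adjusted p = 0.291). Its near copy PDF1.2b, which may share probes with it, had -0.28, THI2.2 (a thionin) 0.56, THI2.1 0.06 and JMT, the jasmonate methyltransferase, -0.32. Of the 5 tested members 0 passed, where 4.96% of all probe sets tested were called, so this count says little. The median was -0.28. This list holds 30 loci, 6 of which have a named probe set.

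Of 5 tested endoplasmic reticulum genes 4 were higher with SA, and 1 rose. Over all probe sets tested, 58.4% were lower and 2.47% rose. ATERDJ3B, a luminal co-chaperone of BiP that also serves the folding of immune receptors, had 9.88, 9.14 and 9.81 with silwet and 10.56, 10.44 and 10.67 with SA. All SA arrays were above all silwet arrays, of which replicate 2 was the lowest, and it rose by 0.94 ± 0.14 (1.92-fold, adjusted p = 0.0283). It did not pass without replicate 3 or without the replicate block. CRT1b, a calreticulin, was 0.55 higher and BZIP60, a factor of the unfolded protein response, 0.41 higher, neither passing (adjusted p = 0.073 and 0.208). The median of the list was 0.55.

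In the phenylpropanoid list 2 of 7 tested members rose and 0 fell (median 0.30), where 2.47% of all probe sets tested rose and 2.49% fell. AT3G13610, known as F6'H1 and the enzyme that opens the route to the coumarin scopoletin, had 7.17, 6.54 and 7.05 with silwet and 8.25, 9.46 and 8.92 with SA. The groups did not overlap, SA replicate 1 was the lowest of its group, and the rise of 1.96 ± 0.31 was 3.88-fold (adjusted p = 0.029, not passed without replicate 3). CCR2, a cinnamoyl-CoA reductase of lignin synthesis, rose by 0.89 ± 0.13 (adjusted p = 0.0283), a call that was lost without replicate 3 and without the block.

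Of 37 tested members of the UDP-glycosyltransferase list, 3 rose and 2 fell, against 4.96% of all probe sets called in either direction, with a median of 0.00. The list was matched on gene symbols and leaves out enzymes under other names, such as the glucosyltransferase IAGLU, described below with the auxin genes. Besides UGT76B1 the risers of this list were GT72B1 (UGT72B1), which glucosylates chlorinated phenols and anilines, by 1.11 ± 0.13 (adjusted p = 0.0183), and UGT71C5, which glucosylates abscisic acid, by 0.60 (adjusted p = 0.0477). UGT78D1, a flavonol rhamnosyltransferase, fell from 6.06, 6.94 and 6.73 to 5.46, 5.12 and 5.79 with no overlap, a difference of -1.12 ± 0.23 (adjusted p = 0.041). UGT85A4 fell by 0.69 (adjusted p = 0.0441). Apart from UGT76B1, these calls were lost without replicate 3. UGT71C5, UGT78D1 and UGT85A4 were also lost without replicate 2 and without the block, UGT71C5 without replicate 1 and with an offset of 1, and UGT85A4 with quantile normalization. UGT73D1 had a difference of 1.29 that did not pass (adjusted p = 0.116).

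UGT78D1 was also the only member called of 6 tested flavonoid genes, all 6 of which were lower (median -0.28). Over all probe sets tested, 4.96% were called and 58.4% were lower. Of 15 cytochrome P450 enzymes tested, CYP71B23 rose by 0.82 ± 0.12 (adjusted p = 0.0276, not passed without replicate 3), and 12 were lower (median -0.24). Glutathione S-transferases, enzymes of detoxification, had 0 of 10 called and a median of -0.05. GSTU27 was 0.49 higher and GSTU18 was -0.75 in difference, neither passing (adjusted p = 0.074 and 0.0647). Both tested members of the camalexin and tryptophan list were higher, AT1G26380 by a difference of 0.56 and AT2G04400 of 0.51, without passing.

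Auxin genes gave a single call among the 9 tested, where 4.96% of all probe sets tested were called. IAGLU, a glucosyltransferase of the auxin indole-3-acetic acid, had 5.41, 6.90 and 7.15 with silwet and 8.07, 8.62 and 8.09 with SA. Silwet replicate 1 was lower than the other two, the groups did not overlap, and IAGLU rose by 1.77 ± 0.29 (3.42-fold, adjusted p = 0.0302). It did not pass without replicate 2 or without the block. GH3.3, an auxin-conjugating enzyme, was 0.42 higher and did not pass (adjusted p = 0.18), and the median of the 9 tested members was 0.10.

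Among genes of protein turnover, 2 of 7 tested members of the autophagy and vacuolar protease list rose and 0 fell (median 0.05). Beside these counts, 2.47% of all probe sets tested rose and 2.49% fell. ATG8B, an ATG8 protein of the autophagosome membrane, had 6.42, 6.48 and 6.72 with silwet and 7.22, 7.94 and 7.33 with SA. It rose by 0.96 ± 0.18 (1.94-fold, adjusted p = 0.0374), and ATG8H rose by 0.84 ± 0.16 (1.79-fold, adjusted p = 0.0357). SA replicate 2 was the highest array for both, and neither passed without replicate 2, without replicate 3 or without the block. ATG8H also did not pass without replicate 1. ATG8C and ATG8F had differences of 0.16 and -0.29. PUB24, a ubiquitin ligase that restrains immunity, rose by 0.81 ± 0.14 (adjusted p = 0.0338, not passed without replicate 2 or 3), the only call among 12 proteasome and ubiquitin genes (median 0.10).

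The largest falls among named genes included the glucosinolate enzyme AOP3. AOP3, which acts on the side chain of methionine-derived glucosinolates in accessions that express it, had 8.98, 8.72 and 8.84 with silwet and 7.08, 6.41 and 7.75 with SA. The silwet arrays were nearly level (SD 0.13) and lay above all SA arrays, which were spread (SD 0.67). AOP3 fell by 1.77 ± 0.23 (3.40-fold, adjusted p = 0.0212). All 5 tested glucosinolate genes were lower, 2 passed, and the median was -0.87. Over all probe sets tested, 58.4% were lower and 2.49% fell. AT2G31790 fell by 1.58 ± 0.26 (adjusted p = 0.0302). BCAT4, the aminotransferase that starts methionine chain elongation, was -0.87 in difference without overlap and did not pass (adjusted p = 0.088). This list holds 43 loci, of which 5 have a named probe set.

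PRK, the phosphoribulokinase of the Calvin cycle, had 11.05, 11.01 and 10.86 with silwet and 10.58, 10.25 and 10.37 with SA. No array overlapped, and PRK fell by 0.57 ± 0.11 (1.49-fold, adjusted p = 0.0357). PORB, a protochlorophyllide reductase of chlorophyll synthesis, fell by 0.58 ± 0.12, from 10.84, 10.92 and 10.96 to 10.49, 10.09 and 10.40 (adjusted p = 0.0441). Neither passed without replicate 2, without replicate 3, without the block or without the variance trend, and PRK also not without replicate 1. Of 8 Calvin cycle and photorespiration genes only PRK passed (median -0.21), and of 4 chlorophyll synthesis genes only PORB (median -0.50), beside 2.49% of all probe sets that fell.

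All 7 tested genes of the light reactions were lower, by -0.01 to -0.24, and 0 passed (median -0.10). Of 69 tested genes of the chloroplast genome, 52 were higher with SA (median 0.09), 0 rose and 1 fell (1.45% called). Over all probe sets tested, 58.4% were lower and 4.96% were called. The gene that fell was petG of the cytochrome b6f complex, by 0.67, with dim signals of 20.7 to 65.5. It did not pass when any single replicate was left out or without the block.

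ATSPS4F, a sucrose phosphate synthase, had 7.15, 6.95 and 7.41 with silwet and 5.67, 5.55 and 6.14 with SA. The groups lay apart, and it fell by 1.38 ± 0.13 (2.61-fold, adjusted p = 0.0142). GI (GIGANTEA), which links the circadian clock to flowering, had 8.75, 8.64 and 8.73 with silwet and 8.27, 7.87 and 7.95 with SA, and fell by 0.67 ± 0.13 (adjusted p = 0.0394). It was the only clock gene of 19 that could be tested, and it did not pass when any single replicate was left out or without the block.

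Cold and abscisic acid genes were not called, where 4.96% of all probe sets tested were. COR15A, COR15B and COR47, which protect cells during freezing, had differences of -0.77, -0.67 and -0.51 (adjusted p = 0.0916, 0.0642 and 0.0655), and LTI30, a dehydrin, of 0.41. Of 13 calcium sensors and channels tested, CML43, a calmodulin-like protein, rose by 1.30 ± 0.20 (adjusted p = 0.0286), which was lost without replicate 3 and without the block, and the median was -0.15. Among 21 tested genes of wall loosening and pectin, the pectin methylesterases PME61 and PMEPCRF rose by 1.03 and 0.65 (adjusted p = 0.035 and 0.0465), and the median was -0.01. PME61 did not pass without replicate 3, and PMEPCRF, whose groups overlapped, did not pass when any single replicate was left out.

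The other lists held no call. Medians were 0.22 over 6 peroxidases, 0.01 over 10 glutaredoxins and thioredoxins (where GRX480 was not counted), and 0.03 over 5 SNARE and exocyst proteins. NAC014 and HIS1-3, a linker histone of drought, were the only tested members of the NAC and the histone and cell cycle lists, with differences of -0.23 and 0.08. In all, 213 distinct loci of the lists were tested, of which 19 rose and 7 fell, beside 2.47% and 2.49% of all probe sets tested. The lists rest on the names in the gene table and cover only part of each pathway.

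**Figure D4:**
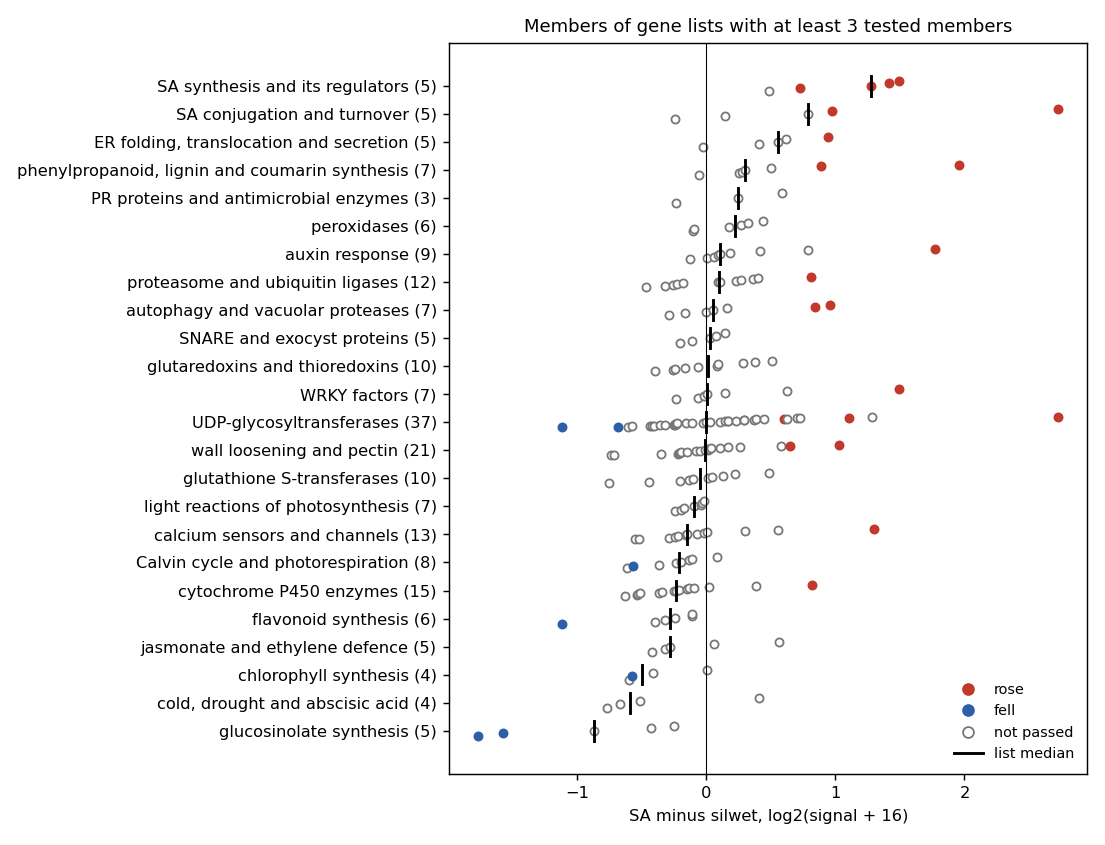
Difference between SA and silwet (log2(signal + 16)) of each tested member of the lists, by list, with members that rose in red, members that fell in blue, the others open and a black bar for the median of the list. The list of SA synthesis and its regulators has the highest median (1.28) and glucosinolate synthesis the lowest (-0.87) of the lists with at least 3 tested members.

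Many of the largest changes belong to loci for which the gene table gives no name, and no role is given to them here. The rises of AT4G01870 (1.85 ± 0.15, adjusted p = 0.0101), AT4G22530 (1.75 ± 0.14, adjusted p = 0.0101) and AT5G62770 (1.66 ± 0.14, adjusted p = 0.0112) were among those with the smallest adjusted p. AT4G22530 was nearly level on the silwet arrays, at 7.49, 7.59 and 7.58, against 9.06, 9.55 and 9.30 with SA. The other unnamed loci among the 15 largest rises were AT1G08050, AT4G32870, AT1G02360, AT3G28510, AT2G39210, AT3G44190 and AT3G57020, with rises of 1.40 to 1.79. None of the 15 had overlapping groups, which follows largely from choosing the largest differences that passed. Of all probe sets tested, 9.97% had every SA array above every silwet array.

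On the falling side AT4G01130 fell by 1.62 ± 0.18 (adjusted p = 0.0165), from 6.84, 7.40 and 6.66 to 5.64, 5.33 and 5.08. AT5G62360 fell, with a difference of -1.50 ± 0.17 (adjusted p = 0.017), and AT3G20820 by 1.48 ± 0.15 (adjusted p = 0.0152). The others of the 15 largest were AT1G29660, AT1G68600, AT1G60590, AT3G55760, AT3G19000, AT5G63180, AT3G15570, AT1G67750 and AT4G37080, with differences of -1.30 to -1.58. Again no groups overlapped, which follows largely from the same choice, and 15% of all probe sets tested had every SA array below every silwet array.

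Among probe sets without a single gene name, 245035_at had the largest rise, from 8.29, 7.46 and 7.58 to 10.96, 10.93 and 10.71 (3.09 ± 0.17, adjusted p = 0.00405, the smallest of all). The next was 249890_at, which rose by 2.22. The probe sets 254163_s_at and 252607_at had the largest falls, with differences of -2.08 and -1.85, and were more scattered. On the SA arrays 254163_s_at lay at 8.29, 5.98 and 6.70, and on the silwet arrays 252607_at lay at 7.01, 8.59 and 6.98.

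The rule for named genes gave 68 genes, of which 48 passed. The 48 had the same sign in all 3 pairs, so most alternatives, such as leaving out a replicate or the block, could not reverse them. All 48 kept their direction in every alternative that gave them a value, and 13 were lost only where the filter on dim probe sets was dropped: UGT76B1, AT4G01870, AT4G22530, AT5G62770, AT2G39210, AT5G52810, AOP3, ATSPS4F, AT2G31790, AT4G01130, AT3G55760, AT3G15570 and AT4G37080. The other 35 depended on at least 1 further choice. Without replicates 1, 2 and 3 in turn, 43, 35 and 18 of the 48 still passed.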

How the data were processed

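The authors deposited 1 intensity per probe set and array, a linear signal from MAS5, which the submitters' processing notes name without version or settings. Scaling each array to a common level hides changes of total RNA, and dim signals are noisy. Signals were analysed as log2(signal + 16). After 64 controls, probe sets whose mean over the 6 arrays lay under the 25th percentile were left out, and 17059 were tested with limma 3.58.1 in R 4.3.3 (treatment and replicate number, moderated variances with a trend, two-sided, Benjamini-Hochberg over all probe sets tested, threshold 0.05). The number of arrays limits the precision. No 2 arrays were identical.

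The pairing was taken from the replicate numbers in the titles, which do not say that arrays with the same number were harvested together. Deviations from the group means correlated across probe sets between arrays of the same number, with r of 0.352, 0.162 and 0.475 for replicates 1, 2 and 3, and of -0.377 to 0.107 between other numbers. These deviations cancel out within each treatment, so the values depend on each other and cannot decide whether the pairing holds.

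Gene names came from a platform table (13513 probe sets with 1 gene, 503 with several, 8730 not listed), updated to the TAIR10.1 gene table, where 13436 matched. Named genes were the 15 largest rises and 15 largest falls that passed with the same sign in all 3 pairs. From each of 41 gene lists up to 4 passing members were added, or the 2 with the smallest p where none passed, and PR1, PR2, PR5, ICS1, UGT76B1, GRX480 and WRKY53 wherever named. Of the lists, 28 had a tested member. The arrays, members and lists were chosen with earlier results of these data known, so lists are described by counts and medians and not tested. Alternatives were other offsets, quantile normalization, other filters, no block, no trend, array weights, plain probe sets only, the 3' to 5' ratio as a covariate, a 2-fold limit and each replicate left out. The main fit was tested on simulated data in which 100 probe sets changed by 1 log2 unit, 100 by 2 log2 units and no others. It recovered 25 and 64 of them in turn, with 1 false call. The 6 arrays gave 846 calls, a setting unlike this one. How many would be recovered or falsely called in such a setting was not tested. A gene that did not pass may still differ. A planned description of promoter motifs was not made, and the other 12 arrays were not analysed here. Plots used matplotlib 3.10.9 in Python 3.11.15.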

Additional observations from a re-analysis of the deposited data

How the results depend on the processing

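The 846 calls (422 rises, 424 falls) became 0 of either direction without the filter (smallest adjusted p = 0.0605 in limma, 4437 at an unadjusted p under 0.05). They became 291 without the replicate block (158 and 133), 187 with the 3' to 5' ratio as a covariate and no block (110 and 77) and 210 with a 2-fold limit (108 and 102). Leaving out 1 replicate gave 50 to 900 calls, 28 to 401 rises and 22 to 499 falls, the lowest without replicate 3. Array weights gave 1232 calls with 640 falls. Offsets of 1 and 64 gave 724 and 920, quantile normalization 899 (57.4% rises against 49.9%), a filter at the median 1031, no trend 897 and plain probe sets alone 899. The causes were not tested. Of 48 named genes that passed, 31 still passed without the block, 26 with the covariate and at least 46 with the offsets, quantile normalization, no trend, array weights or plain probe sets, and 47 of 47 tested with the filter at the median. Over the settings that leave out a replicate, 4 genes that had not passed changed direction: CHI ranged from -0.16 (without replicate 2) to 1.23, AT5G64120 from -0.089 (without replicate 2) to 0.79, HIS1-3 from -0.095 (without replicate 1) to 0.18, and ChiC from -0.83 to 0.070 (without replicate 1), with 0.057 without replicate 3. Dim probe sets, with 96 calls among 5687, are the least well measured.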

Other observations

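Genes that carry a symbol, some of them also members of the lists, were grouped by the letters of the symbol after their values were seen, so these counts are descriptions. Of all probe sets tested 2.47% rose and 2.49% fell, and 58.4% were lower with SA. Fes1A, an exchange factor of cytosolic HSP70, rose by 1.37, Hop3, a co-chaperone that links HSP70 and HSP90, rose from a mean of 4.67 to 5.67, and SGT1A, a co-chaperone of immune receptors, rose by 0.90. Fes1A and Hop3 were each the only riser of 3 tested genes of their symbol, of which 1 was lower with SA. Hop3 was dim, with signals of 5.3 to 11.9 with silwet and 21.0 to 49.7 with SA (limma adjusted p = 0.0477). Its call was lost in 6 of 12 alternatives, among them an offset of 1. DER1 and DER2.1, derlins that help to draw misfolded proteins out of the endoplasmic reticulum, both rose by 0.69, while DER2.2 had a difference of 0.06. Of 8 tested ATG genes, ATG8B and ATG8H were the 2 that rose. GFAT, which feeds amino sugar synthesis, rose by 1.16, PMM, a phosphomannomutase, rose by 0.60, and ENGase85A, an enzyme that releases N-glycans, rose by 0.80. TET8, a tetraspanin of extracellular vesicles, rose by 0.80, while TET3 fell by 0.72, out of 11 tetraspanins tested.

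Of 12 SWEET sugar transporters tested, SWEET1 fell by 1.13 and SWEET17, a vacuolar fructose carrier, fell by 0.87. SWEET1 was level on the silwet arrays, at 8.17, 8.13 and 8.19, and lay at 7.11, 6.89 and 7.11 with SA, without overlap. Of 17 tested TBL genes, a family that acetylates wall polymers, TBL26, TBL45 and TBL39 fell by 1.21, 0.58 and 0.56. The groups of TBL39 overlapped. Neither TBL45 nor TBL39 passed with quantile normalization or when any single replicate was left out. All 5 tubulin beta genes tested were lower (median -0.48), and TUB5 fell by 0.77 with groups that overlapped. The 5 tested genes with a CRR symbol, only some of which are editing factors of chloroplast RNA, were all lower (median -0.71). Among them CRR42 and CRR21 fell, with differences of -1.10 and -0.71. Beside these counts, 2.49% of all probe sets tested fell and 58.4% were lower. STOMAGEN, a peptide that promotes stomata, fell by 1.18, AOP1 fell from a mean of 6.34 to 5.34, beside AOP3, and THIC, of thiamine synthesis, fell by 0.93.

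Of the 72 named symbols that passed, all 72 kept their direction in every alternative that gave them a value. They had the same sign in every pair, so most alternatives, such as leaving out a replicate, could not reverse them. Without replicate 3 only 5 still passed, without replicate 2 it was 28 and without replicate 1 it was 47. Without the block 26 passed, and without the filter on dim probe sets 0 passed.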
